A study of Pimephales promelas with 32 samples.

Results

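In fathead minnow larvae kept in water with the pyrethroid insecticide bifenthrin, 134 gene models had at least 2 times their control level while their mean level under copper sulfate stayed between 0.8 times control and the reciprocal of 0.8. They are 134 of the 26150 gene models counted (0.512%), and of the 16457 models with a mean raw count from 50 to under 10000 over all larvae (0.814%). Levels are given as CPM, the count of a gene model divided by the larva's total count and multiplied by 1000000. Members were chosen by 3 measured values: a model was kept where its mean CPM ratio of bifenthrin to control was 2 or more, its lowest bifenthrin larva lay above its highest control larva, and its mean CPM ratio of copper sulfate to control lay within that band. The abundance range was also part of the rule. The differences from control and between the chemicals are therefore descriptions and carry no test here.

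Pyrethroids are esters that hold voltage-gated sodium channels open, so that nerve and muscle fibres fire repeatedly, and fish are among the animals most sensitive to them. Dissolved copper acts in another way: at the gill it disturbs the uptake of sodium and other ions, and inside cells it can drive oxidation. A gene that moves under 1 of the chemicals and not under the other is of interest to anyone who wants to tell from RNA which kind of chemical a fish has met.

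RNA was sequenced from whole single larvae of Pimephales promelas, a freshwater fish used in toxicity testing, to learn whether expression signatures can separate chemicals that act in different ways. The groups were 10 larvae in 3.2 µg/L bifenthrin, 11 larvae in 40 µg/L copper sulfate and 11 control larvae, all held for 48 h and all with 0.002% DMSO in their water as the vehicle. Each chemical was given at 1 concentration, so the kind of chemical and the strength of the exposure cannot be told apart. The age label gives 48 h post hatch, whereas the treatment protocol gives 96 h, and the labels do not settle which is right. Larvae of each treatment came from 5 beakers, and 3 larvae per beaker were frozen. The labels do not say which larva came from which beaker, so larvae of 1 beaker are counted here as separate replicates. They may be alike, and the p-values do not allow for this. Total counts ranged from 10655113 to 17993699 per larva. In sequencing lane 7 were 5 bifenthrin, 6 copper sulfate and 5 control larvae, and in lane 6 were 5 bifenthrin, 5 copper sulfate and 6 control larvae. In whole bodies, a change in the number of cells of a type and a change in the RNA per cell cannot be told apart.

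The table lists a protein accession beside most models, but neither it nor the reference table used here pairs the model numbers with gene names. For 123 members (91.8%) it gave 1 accession, for 6 members (4.48%) several and for 5 members (3.73%) none. Among all models of the same range of counts the shares were 88.7%, 5.93% and 5.18%, close to those of the members. An enzyme class stood beside 0 members and beside 0.140% of the models of that range. The members are therefore described by their values, and 2 are identified, the one with the largest ratio and the one with the highest level under bifenthrin, with no role given.

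The member with the largest ratio was model FMg005786, listed with accession A4JYN9. Its level was lowest at 22.7, median 52.5 and highest at 60.5 CPM in bifenthrin larvae, against 1.90, 2.83 and 4.41 CPM in copper sulfate larvae and 1.46, 3.08 and 4.02 CPM in control larvae. Every bifenthrin larva lay far above every other larva, while copper sulfate and control larvae covered nearly the same range. The group means were 46.9 ± 14.5 CPM under bifenthrin (SD, n = 10), 3.06 ± 0.923 CPM under copper sulfate (SD, n = 11) and 3.09 ± 0.809 CPM in controls (SD, n = 11). The mean ratio to control was 15.2 for bifenthrin and 0.990 for copper sulfate. Bifenthrin replicates 2 and 13, both under 25 CPM, were the low pair of the treated group, and the other 8 larvae lay between 37.9 and 60.5 CPM. These low larvae came from different lanes. In lane 7 alone the bifenthrin ratio was 16.3, and in lane 6 alone it was 14.0.

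The most abundant member under bifenthrin, and second by ratio, was FMg013280, listed with accession Q7ZV57. It had 331 (lowest), 888 (median) and 1437 (highest) CPM in bifenthrin larvae, against 32.02, 66.7 and 154 CPM in copper sulfate larvae and 32.03, 68.5 and 105 CPM in control larvae. The bifenthrin larvae again stood apart from both other groups, and some copper sulfate larvae exceeded the highest control. Mean levels were 822 ± 348 CPM under bifenthrin (SD, n = 10), 79.4 ± 41.5 CPM under copper sulfate (SD, n = 11) and 68.1 ± 27.7 CPM in controls (SD, n = 11). Bifenthrin was at 12.1 times control and copper sulfate at 1.17 times control. This model alone held 6.27% of the summed CPM of the members under bifenthrin, 1.56% under copper sulfate and 1.40% in controls. In lane 7 alone the ratios were 13.9 for bifenthrin and 1.02 for copper sulfate, and in lane 6 alone they were 11.1 and 1.36.

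**Figure D1:**
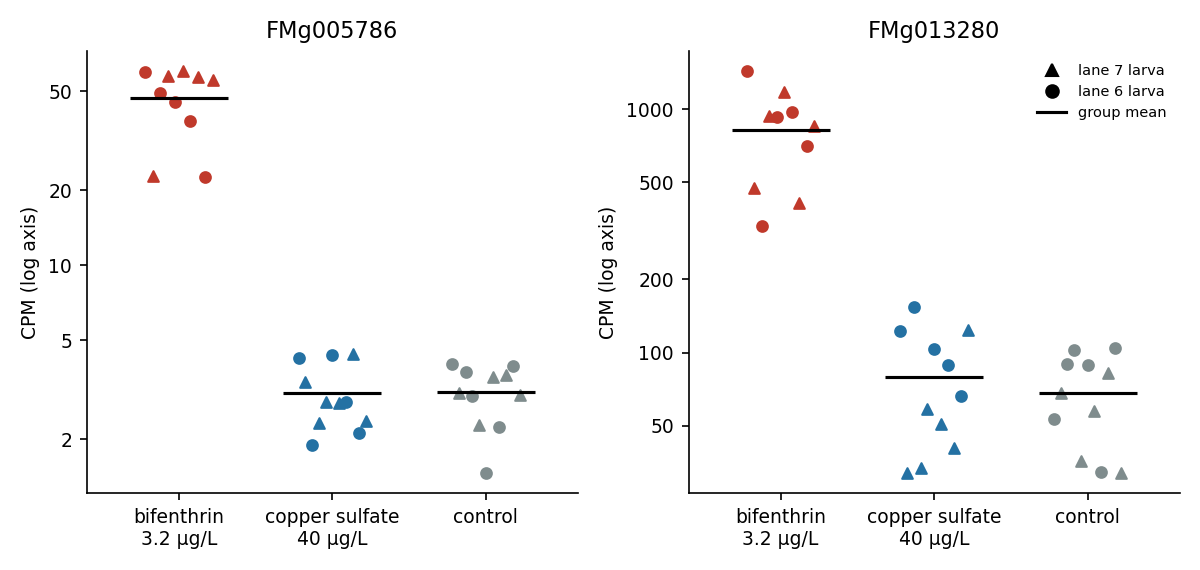
Level of FMg005786 (left) and FMg013280 (right) in each larva, in CPM on a log axis, for bifenthrin, copper sulfate and control larvae; triangles are lane 7 larvae, circles lane 6 larvae, and bars group means. Bifenthrin larvae reach down to 22.7 and 331 CPM, above the highest control larvae at 4.02 and 105 CPM.

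Behind these models the ratios fell off quickly. The third member by ratio had 11.2, 22.1 and 66.0 CPM (lowest, median and highest) in bifenthrin larvae, against 1.05, 2.55 and 5.54 CPM in copper sulfate larvae and 1.89, 2.74 and 4.22 CPM in control larvae, a bifenthrin ratio of 9.94. The fourth had 32.2, 178 and 249 CPM in bifenthrin larvae, against 15.6, 25.0 and 34.5 CPM in copper sulfate larvae and 13.6, 21.8 and 31.9 CPM in control larvae, a ratio of 7.19. In the third member the groups were well apart, whereas in the fourth the lowest bifenthrin larva was only 1.01 times the highest control larva and lay under the highest copper sulfate larva. The fifth, at a ratio of 6.97, had the same narrow margin of 1.01 over control, on levels of a few CPM. The sixth, seventh and eighth, at 6.54, 6.40 and 5.97, each kept their lowest bifenthrin larva at more than 2 times their highest control larva.

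Most members changed by a modest amount. The bifenthrin ratio had a lower quartile of 2.16, a median of 2.45 and an upper quartile of 2.99, where the median over all models of the same range of counts was 0.942. Between 2 and under 2.5 lay 73 members, between 2.5 and under 3 another 28, between 3 and under 4 another 15, between 4 and under 6 another 11, and 7 were at 6 or more. The lowest bifenthrin larva was a median of 1.30 times the highest control larva, it reached 2 times or more in 12 members, and it was under 1.1 times in 23 members. The rule itself asked for bifenthrin larvae wholly above control larvae, as in 2.87% of all models of the same range of counts. Shares at 2 times and at 1.1 times were not taken over all models. Members ranged widely in level: the mean over the group was a median of 57.1 CPM under bifenthrin, 22.03 CPM under copper sulfate and 22.01 CPM in controls. Of the 15 members under 5 CPM in controls, 6 reached a ratio of 4. So did 6 of the 51 between 5 and 20 CPM and 6 of the 61 between 20 and 100 CPM. At 100 CPM or more, 0 of the 7 members did. The control level is the divisor of the ratio, and the rule chose members by that ratio. Nothing is therefore read from these counts.

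Behind FMg013280, the next most abundant members had smaller ratios. The second most abundant member under bifenthrin had 655, 777 and 822 CPM (lowest, median and highest) in bifenthrin larvae, against 213, 264 and 379 CPM in copper sulfate larvae and 205, 286 and 388 CPM in control larvae. Its bifenthrin larvae formed a tight band above both overlapping groups, with the smallest coefficient of variation (CV, the SD as a percent of the mean) of all members, 8.27%. The ratio to control was 2.68 for bifenthrin and 0.938 for copper sulfate. The third most abundant had 547, 719 and 915 CPM in bifenthrin larvae, against 195, 409 and 438 CPM in copper sulfate larvae and 211, 358 and 500 CPM in control larvae, and its mean level was 2.09 times control under bifenthrin. The 5 most abundant members held 24.6% of the summed member CPM under bifenthrin, 21.8% under copper sulfate and 22.9% in controls.

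**Figure D2:**
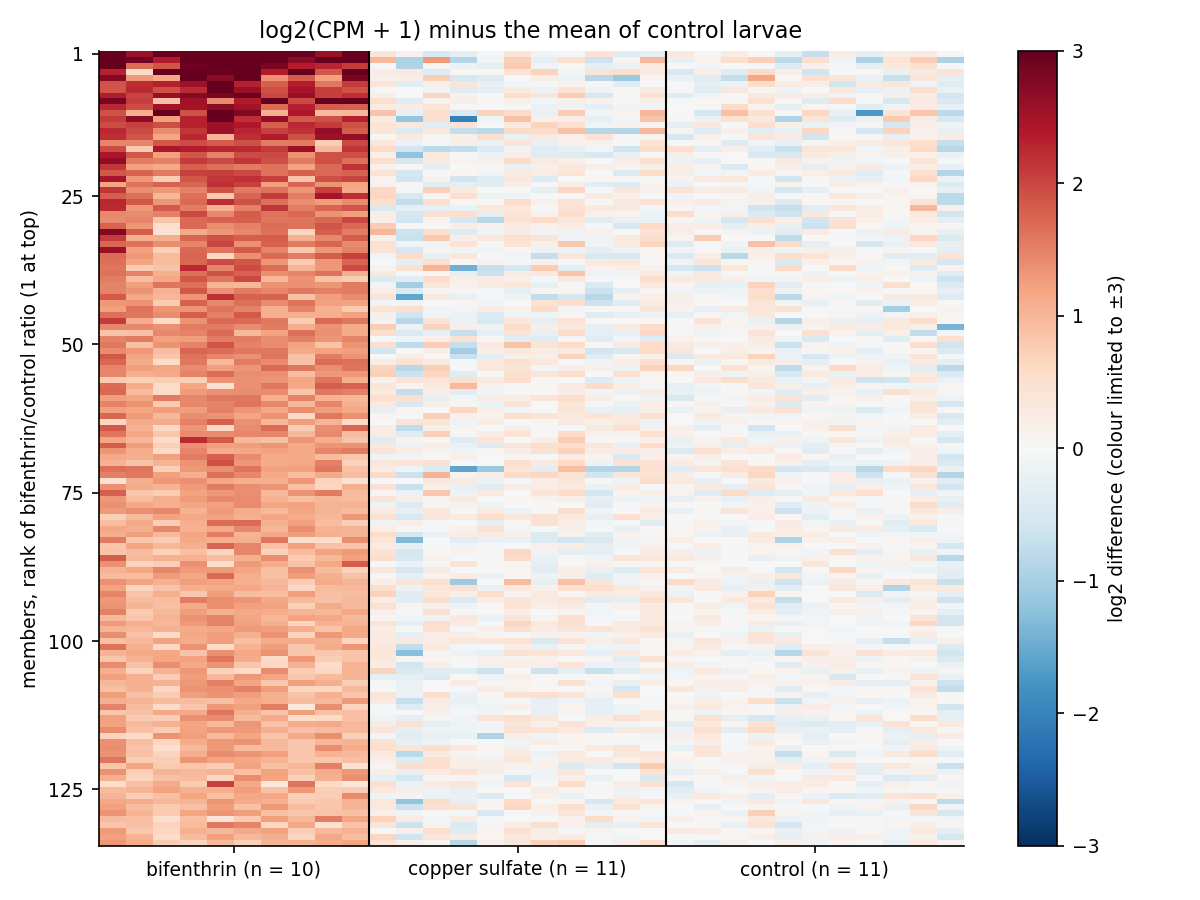
Level of each member (rows, ordered by bifenthrin/control ratio) in each larva (columns), as log2(CPM + 1) minus the mean of the control larvae, with red above and blue below control and the colour limited to 3 in either direction. The 10 bifenthrin columns are red in nearly every row, and the copper sulfate and control columns are pale and mixed.

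The cut-offs of the rule fell within a continuous range of values. The lowest bifenthrin ratio among members was 2.01 and the nearest model outside was at 1.98. In the 0.1 above the limit lay 18 members, and in the 0.1 below it 18 models met every other condition. The copper sulfate ratio of members ran from 0.808 to 1.248, with the nearest models outside at 0.7998 and 1.252. The lowest bifenthrin larva was 1.01 times the highest control larva in the closest member and 0.996 times in the closest model outside, and 73 models met all ratio limits but overlapped between bifenthrin and control larvae. The least abundant member had a mean count of 52.8, the nearest model outside had 49.9, and 13 models met the other conditions at under 50 counts.

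Under copper sulfate the members sat slightly above control, within the band that the rule allowed. Their copper sulfate ratio had a lower quartile of 0.989, a median of 1.06 and an upper quartile of 1.15, beside a median of 0.946 over all models of the same range of counts. The mean level under copper sulfate exceeded that of controls in 95 of the 134 members, and 38 members lay between 0.95 and 1.05 times control. In 126 members the copper sulfate mean lay within the range of the single control larvae. The number of copper sulfate larvae above the highest control larva was a median of 1 of 11, it was 0 in 36 members and 4 or more in 22 members. These counts are not set beside all models. The rule took both ratios against the same control larvae, so nothing is read from these values.

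Set directly against the other chemical, bifenthrin was at a median of 2.28 times copper sulfate (range 1.67 to 15.3). In 112 members all 11 copper sulfate larvae lay under the lowest bifenthrin larva. Over all models of the same range of counts, 2.75% had bifenthrin larvae wholly above copper sulfate larvae and 2.87% had them wholly above control larvae. Where copper sulfate larvae overlapped bifenthrin larvae, replicates 1 and 4 did so in 7 members each and replicates 10 and 14 in 6 each, while replicates 6 and 13 did so in 0.

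In the edgeR quasi-likelihood fit over all genes, 134 members were called higher under bifenthrin than in controls at an adjusted p under 0.05. Of all genes tested, 18% were called higher (38.2% in either direction). Called higher under bifenthrin than under copper sulfate were 134 members, beside 14.9% of all genes. Copper sulfate against control gave 9 members called higher and 0 called lower, beside 3.58% and 1.99% of all genes (5.58% in either direction), and these 9 had copper sulfate ratios between 1.17 and 1.248. At an unadjusted p under 0.05 the copper sulfate counts were 32 higher and 0 lower, beside 18.6% of all genes in either direction. DESeq2 called 11 members higher and 0 lower, beside 912 genes higher and 571 lower of 21166. The count of 9 was 2 when libraries were scaled by their totals alone, where 582 genes in all were called higher, and 0 when lane 7 was fitted alone, where 77 were, against 759 with both lanes. Since all of these contrasts entered the rule, the counts describe the members and support nothing.

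The members can be set beside the other models raised by bifenthrin. Of 216 models with a bifenthrin ratio of 2 or more and no overlap with control larvae, 134 (62.0%) were in the copper sulfate band, 76 (35.2%) lay above it and 6 (2.78%) lay under 0.8. Over all models of the same range of counts, 86.7% were in the band, 4.48% above it and 8.79% under it. Both ratios were taken against the same control larvae, and nothing is read from these shares. The 76 models above the band had a median bifenthrin ratio of 3.20 with a highest of 56.1, and a median copper sulfate ratio of 1.49, against a median bifenthrin ratio of 2.45 with a highest of 15.2 in the members.

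**Figure D3:**
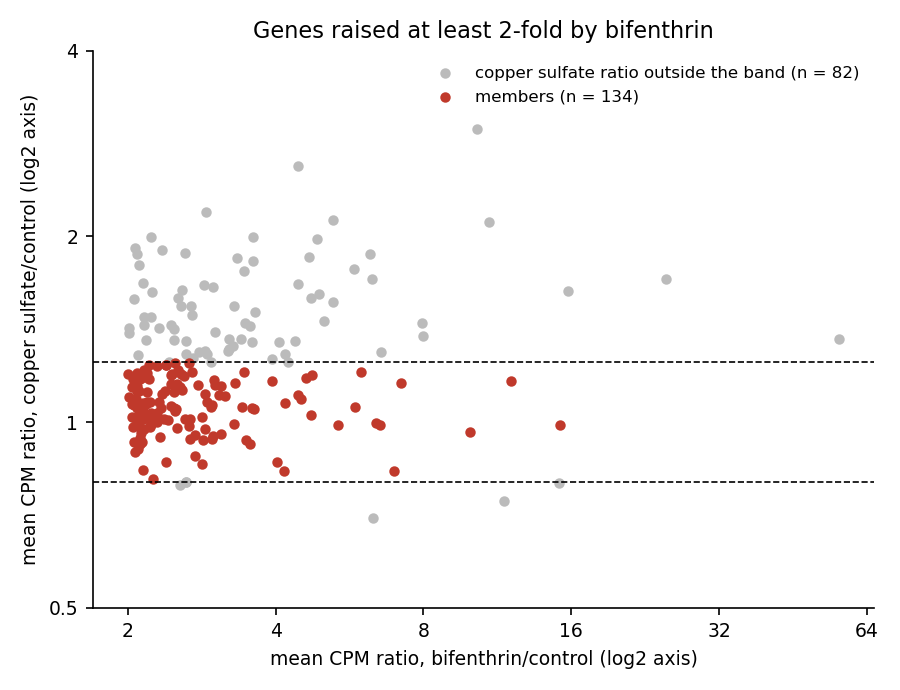
Mean CPM ratio to control under bifenthrin (horizontal) and under copper sulfate (vertical), both on log2 axes, for the 216 models raised at least 2-fold with no overlap between bifenthrin and control larvae; red points are the 134 members, grey points the other 82, and dashed lines the limits of the copper sulfate band. Most members crowd at bifenthrin ratios under 3, and the largest ratio in the plot, 56.1, belongs to a model above the band.

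Summed over members, the levels can be read larva by larva, although the rule itself keeps bifenthrin and control larvae apart and copper sulfate means near control. The members together held 1.02% (lowest), 1.31% (median) and 1.58% (highest) of all counts in bifenthrin larvae, against 0.391%, 0.494% and 0.591% in copper sulfate larvae and 0.414%, 0.484% and 0.570% in control larvae. Copper sulfate and control larvae overlapped over most of their range, and the distance of every bifenthrin larva from controls follows from the choice of members. The means were 1.31 ± 0.172% (SD, n = 10), 0.511 ± 0.0655% (SD, n = 11) and 0.486 ± 0.0490% (SD, n = 11) for bifenthrin, copper sulfate and control larvae. Without FMg013280 the share ranged from 0.987% to 1.44% in bifenthrin larvae.

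On the log2(CPM + 1) scale, the median difference of the members from the control mean was 1.248 ± 0.14 in bifenthrin larvae (SD, n = 10), 0.07 ± 0.16 in copper sulfate larvae (SD, n = 11) and 0.01 ± 0.12 in control larvae (SD, n = 11). Single larvae ranged from 1.04 to 1.42 under bifenthrin, from -0.25 to 0.25 under copper sulfate and from -0.23 to 0.21 in controls. Bifenthrin replicate 4 had the lowest median difference, and the lowest level of the treated larvae in 45 members. Next was replicate 11 by number of members, lowest in 18, but replicate 2 by median difference, at 1.11 against 1.15 in replicate 11. Replicates 7 and 1 had the highest level in 40 and 38 members, yet the lowest in 11 and 7. The rule used the lowest bifenthrin larva of each model, so this order is a description of the larvae over the chosen members. Replicate 1, with the highest median difference, also had the deepest library of the bifenthrin larvae, at 16007606 counts, while replicates 4 and 7 had 12976442 and 13017417 counts. The part of depth in this order was not tested.

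In a few members 1 bifenthrin larva stood far from the rest. By the gap between the outermost larva and its neighbour as a share of the group's range, measured against the usual 95% limit for 10 values, 13 members (9.70%) had such a larva, beside 5.80% of all models of the same range of counts. About 1 in 20 groups passes this limit by chance. In 11 of the 13 the outer larva was the highest, replicate 1 in 6 members and replicate 7 in 5. In the other 2 it was the lowest, replicate 4 in 1 and replicate 13 in 1. The rule asked the lowest bifenthrin larva to exceed every control larva, which can remove models with 1 very low larva. Nothing is therefore read from this split or from the share of members.

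**Figure D4:**
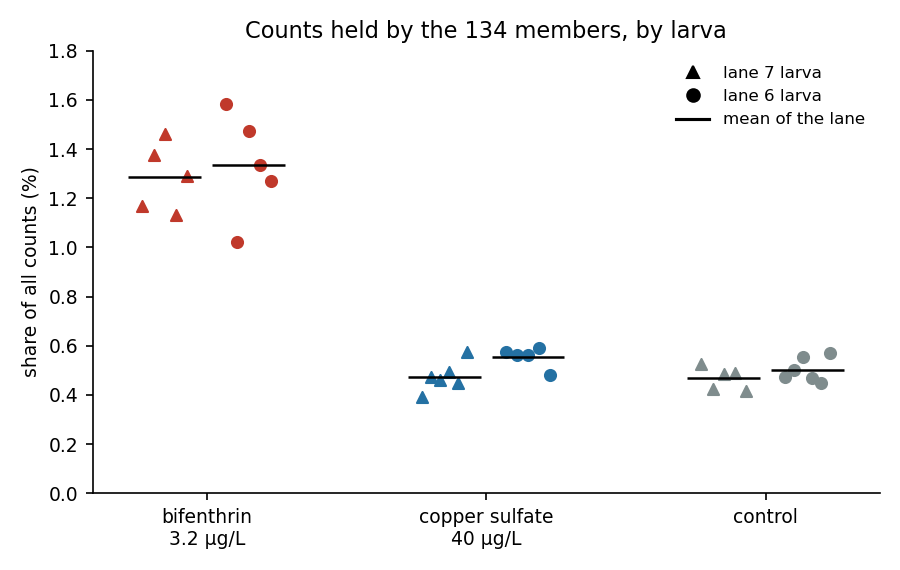
Share of all counts held by the 134 members in each larva, in percent from 0, by group and sequencing lane (triangles lane 7, circles lane 6, bars the mean of the lane). Bifenthrin larvae lie between 1.02% and 1.58%, and every copper sulfate and control larva lies under 0.6%.

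Sequencing lane was not named in the rule, but the rule asked bifenthrin larvae of both lanes to exceed control larvae of both lanes. A model with a large lane difference was thus less likely to become a member. The lane results of members are therefore descriptions, and few calls among them cannot show that lane had no effect. Same-numbered larvae of the groups shared a lane, and another tag in the column labels followed the lane. A lane difference therefore cannot be told apart from a difference by replicate number or tag. With edgeR, lane 7 against lane 6 was called for 0 of the 134 members at an adjusted p under 0.05 (0% of all genes), and the smallest adjusted p of a member was 0.238. DESeq2 also called 0 members, with 0.127% of genes called. At an unadjusted p under 0.05, edgeR gave 25 members lower and 0 higher in lane 7. That is 18.7% of members lower, beside 5.02% of all genes. At the same limit DESeq2 gave 26 members lower and 1 higher, beside 2577 of 21174 genes in either direction. The lane 7 minus lane 6 difference was negative in 101 members (75.4%), beside 48.5% of all genes, with a median log2 difference of -0.09 in members and 0.00 over all genes. The largest fall in lane 7 was that of FMg013280, with a log2 difference of -0.53 ± 0.21 (SE, edgeR p = 0.0156, adjusted p = 0.338). For FMg005786 the difference was 0.12 ± 0.16 (SE, edgeR adjusted p = 0.785).

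The lean towards lane 6 appeared in each group. The members held 1.29% of counts in lane 7 and 1.34% in lane 6 among bifenthrin larvae, 0.474% and 0.555% among copper sulfate larvae, and 0.467% and 0.502% among controls. The difference was smaller than the SD of either lane among bifenthrin and control larvae, and larger than it among copper sulfate larvae. The rule limited how far the bifenthrin difference could vary between lanes. It asked every bifenthrin larva of both lanes to exceed every control larva. The interaction and the single-lane ratios are therefore descriptions of the members and support nothing. The lane-by-bifenthrin interaction was called by edgeR for 0 members (0% of all genes, smallest adjusted p of a member 0.999) and by DESeq2 for 0 members (0.00945% of genes), with 2 members (1.49%) at an unadjusted edgeR p under 0.05, beside 3.38% of all genes. Taken alone, lane 7 gave a median bifenthrin ratio of 2.47 with 125 members at 2 or more, and lane 6 gave 2.39 with 122 members. The copper sulfate ratio left the band in 11 members in lane 7 alone and in 27 members in lane 6 alone, with medians of 1.05 and 1.098.

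The median CV between larvae was larger for members than for models of the same range of counts, with the widest gap under bifenthrin. The rule chose members by the levels of single bifenthrin and control larvae, which can shape their spread. These CVs are therefore descriptions, and nothing is read from the comparison. The median CV was 20.9% under bifenthrin, 21.5% under copper sulfate and 20.1% in controls for members, and 15.2%, 17.5% and 17.6% for all models of the same range of counts. The CV was larger in bifenthrin than in control larvae for 74 members (55.2%), beside 34.6% of all such models. The highest CV under bifenthrin, 72.8%, belonged to a member with 18.1 (lowest), 36.1 (median) and 116 (highest) CPM in bifenthrin larvae, against 6.26, 13.3 and 18.4 CPM in copper sulfate larvae and 1.97, 8.91 and 17.4 CPM in control larvae. In that member the lowest bifenthrin larva lay just under the highest copper sulfate larva and just above the highest control larva.

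Within each group the members tended weakly to be high or low in the same larvae. Over the 8911 pairs of members, Pearson's r of log2(CPM + 1) had a median of 0.238 across the 10 bifenthrin larvae, 0.252 across the 11 copper sulfate larvae and 0.200 across the 11 control larvae. Over all pairs of models of the same range of counts the medians were 0.0126, 0.0529 and 0.0616. An r above 0.5 was found for 26.2%, 26.9% and 19.7% of member pairs, beside 9.65%, 12.7% and 13.6% of all pairs. The r was above 0 for 69.6%, 73.2% and 69.5% of member pairs, beside 51.2%, 55.0% and 55.6% of all pairs. Each r rests on 10 or 11 larvae, and both models of a pair are measured in the same library at the same depth. The mean raw count had a median of 469 in members and 260 in all models of that range. Pairs were not matched by count. The rule also chose members by the levels of single bifenthrin and control larvae. These values are therefore descriptions, and nothing is read from the comparison. With TMM scaling the member medians were 0.275, 0.162 and 0.164, and with the lane means removed they were 0.264, 0.208 and 0.190.

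This shared pattern was not particular to the members: the 76 raised models above the copper sulfate band had medians of 0.245, 0.276 and 0.144. FMg013280 followed the others most closely under bifenthrin, with a median r to the other members of 0.503, the highest of all members, and with 0.497 under copper sulfate and 0.396 in controls. FMg005786, despite its larger ratio, followed them weakly, with 0.190 under bifenthrin, -0.02 under copper sulfate and 0.157 in controls. Its raw counts were 26 to 70 in copper sulfate larvae and 20 to 53 in control larvae, against 301 to 954 in bifenthrin larvae. The part of low counts in its r was not tested. A positive median r to the other members was found for 118 members under bifenthrin, 116 under copper sulfate and 117 in controls.

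**Figure D5:**
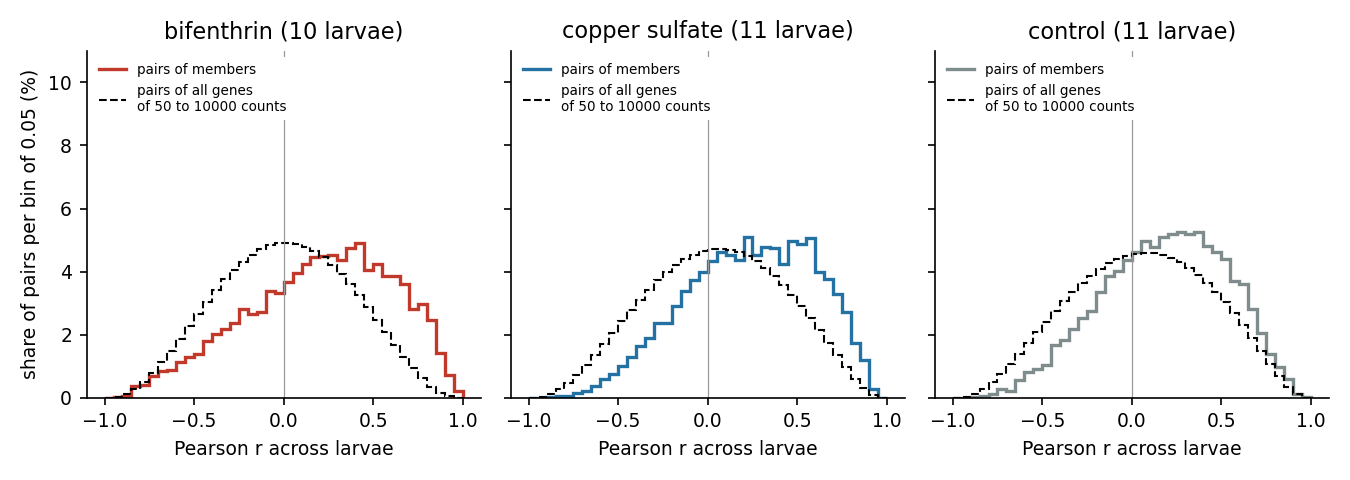
Pearson r of log2(CPM + 1) across larvae of 1 group, for the 8911 pairs of members (solid) and all pairs of models with mean counts from 50 to under 10000 (dashed), as the share of pairs per bin of 0.05, in percent. The member curves lie to the right of the dashed curves in all 3 groups, with medians of 0.238, 0.252 and 0.200.

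The rule did not use the accessions, but models that share one are compared here on the contrasts that it did use. Models outside the list had missed the rule on those values or on their mean count. Members sharing an entry came in 3 pairs, with bifenthrin ratios of 2.38 and 2.05, 2.11 and 2.06, and 2.28 and 2.22. Models listed with the same protein may share reads, so these pairs are uncertain as separate genes. The same holds for the models outside the list that share an entry with a member. Another 25 models outside the list shared an entry with a member, and 23 of these were tested. Of the 23, edgeR called 9 higher and 2 lower under bifenthrin than in controls (18% and 20.2% of all genes), and 1 higher and 1 lower under copper sulfate than in controls (3.58% and 1.99%). Their median log2 difference from control was 0.32 under bifenthrin and 0.08 under copper sulfate, beside -0.01 over all genes tested for either chemical. The rule chose the members on these contrasts, and these models may share reads with them, so nothing is read from these values.

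The strongest of these partners had a mean of 19.2 CPM in bifenthrin larvae, 1.31 CPM in copper sulfate larvae and 0.769 CPM in control larvae. Its bifenthrin ratio of 24.9 was larger than that of any member, and its copper sulfate ratio of 1.71 placed it outside the band; the member it shares an entry with had a bifenthrin ratio of 4.52. Another partner, at a bifenthrin ratio of 3.53 and a copper sulfate ratio of 0.916, missed the rule by its mean count of 46.0, and its member stood at 3.62. The rule made every member higher under bifenthrin, so the 2 partners called lower necessarily went the other way. That of FMg005786 was at a bifenthrin ratio of 0.731 (edgeR adjusted p = 0.00882), against 15.2 in the member. The other was at 0.606 (edgeR adjusted p = 0.000695), against 2.16 in its member.

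Enzyme groups that could bear on either chemical were hardly represented, because an enzyme class stood beside only 83 models of the whole table. Of 10 lists, 4 held models that could be tested, and 0 members were in any of them. Xenobiotic phase 1 enzymes, which oxidise or hydrolyse foreign compounds, and phase 2 enzymes, which conjugate them, had 1 tested model each, and 0 of these were called for either chemical. Calcium and cAMP signalling enzymes had 3 tested models with 0 called. Proteolytic enzymes had 17 tested models, with 1 called higher and 0 lower under bifenthrin and 1 higher and 1 lower under copper sulfate. Over all genes tested, 18% were called higher and 20.2% lower under bifenthrin, and 3.58% higher and 1.99% lower under copper sulfate.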

How the data were processed

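Per the labels' protocols, RNA of single whole larvae was made into libraries with a Lexogen SENSE mRNA kit. The authors deposited raw counts, whole numbers per gene model and larva with no normalization. Tools named in the submitters' processing notes are STAR, limma and bcl2fastq 2.19.1. For the build, annotation, counting tool, strand and multiply matching reads, the sources used here state nothing.

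Columns were matched to larvae by their labels. The rule was applied to CPM from library totals. For tests, filterByExpr of edgeR 4.0.16 (R 4.3.3) kept 21174 models with 99.9% of counts. All 134 members passed, since the rule itself sets a minimum count. After TMM scaling, group and lane were fitted over all 32 larvae in 1 model by edgeR's quasi-likelihood F test with Benjamini-Hochberg adjustment over all models. A second fit added the lane-by-group interaction. SEs were derived from the log2 difference and F. The scripts were tested on simulated data. DESeq2 1.42.0 was the other tool.

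The members and lists were chosen with earlier results of these data known. Models named are those with an enzyme class, product name or symbol (0 members had one) plus the member with the largest ratio and the one most abundant under bifenthrin. Alternatives were other scalings, limits, filters, single lanes, a replicate block and leaving out each larva. Replicates are larvae, and p-values measure the spread between larvae, with no term for beaker. Same-numbered larvae of different groups did not deviate together, so numbers were not taken as pairs. Depth limits precision most for members of few counts.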

Additional observations from a re-analysis of the deposited data

How the results depend on the processing

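The number of models found by the rule was 134, and it was 288 with a bifenthrin ratio limit of 1.5 and 33 with a limit of 3. It was 75 with a copper sulfate band of 0.9 to 1.1, 207 with no requirement on single larvae, and 213 with lane 7 alone, of which 115 were among the 134. Leaving out each larva gave at most 154 models, without bifenthrin replicate 4, and at least 127 of the 134 were found each time. TMM scaling found 149 models (116 shared) and DESeq2 size factors 154 (114 shared). Under TMM scaling the median bifenthrin ratio was 2.57 and the median copper sulfate ratio 1.11.

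The members called higher under copper sulfate than in controls numbered 9. They were 2 with library totals alone, 5 without the lane term, 4 in lane 6 alone and 0 in lane 7 alone, where fewer larvae were fitted. Over all genes, 759 were called higher, and the same settings gave 582, 744, 303 and 77. Leaving out each larva gave 4 to 11, with 4 or 5 without copper sulfate replicate 4, 8, 10 or 13 or control replicate 1, 7, 8, 10 or 11. The cause was not tested. With a replicate block the count was 2, and 536 over all genes. Of 30 pairs of same-numbered larvae 8 had deviations correlated above 0.1 (r from -0.20 to 0.21), so the numbers were not taken as pairing. The block left 134 members called higher for bifenthrin against control, beside 3554 of 21098 genes. It left 134 called higher for bifenthrin against copper sulfate, beside 2856 genes. The rule chose the members on these contrasts, so these counts are no sign of stability. Of 72 alternative values for 19 results, apart from leaving out larvae, 62 were counted as near the main value, 10 moved and 0 reversed. Counted as near were also 179 models found with a copper sulfate band of 0.67 to 1.5, against 134. The calls and ratios under bifenthrin could hardly change, since the rule chose the members by them, so this tally is no measure of stability.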

Other observations

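Model numbers were looked at after the members were known, and no source states that they follow the genome. Over all models, the same annotation entry recurred at the next number in 676 models, at a distance of 5 in 92 and at a distance of 500 in 3. Among members, 0 had another member at the next number, 4 had one within 5 numbers and 59 within 50. These counts are not set beside all models. In blocks of 500 numbers, 15001 to 15500 held 12 members among its 363 models of 50 to under 10000 mean counts (3.31%), beside a median of 2 members over 53 blocks. Non-members called higher under bifenthrin were also most frequent in that block, at 89 (25.4%), beside a block median of 19.6%. This rank depended on the block size. With blocks of 250 the block richest in members held 8 and was number 11 by its share of such non-members (24.2%), and with blocks of 1000 it held 15 and was number 3 (22.7%). Whether these models are neighbours was not tested.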
